A study of Homo sapiens with 4 samples.

Results

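The human genes named ZNF with a number on chromosome 19 encode C2H2 zinc finger proteins, and 238 protein-coding genes with such symbols were found on this chromosome among 57768 gene entries. They were chosen by symbol and position. RNA-seq values (FPKM, fragments scaled to transcript length and library size) came from cells labelled HepG2, a liver cancer cell line, in 2 WT libraries and 2 C/EBPβ enh-/- libraries. WT cells keep the C/EBPβ enhancer, and C/EBPβ enh-/- cells carry a biallelic CRISPR/Cas9 deletion of it. They are called enhancer-deleted below. The labels give no clone, culture or day for any library, so p-values measure only the spread between these libraries, which may be technical.

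A C2H2 finger is a short fold held by a zinc ion that reads a few bases of DNA, and fingers in a row joined by conserved linkers read longer sites. Most of the chromosome 19 genes also encode a KRAB box, which recruits TRIM28 and, through it, the histone methyltransferase SETDB1 and the heterochromatin proteins CBX1, CBX3 and CBX5. Many KRAB zinc finger proteins bind and silence transposable elements. The genes arose by repeated tandem duplication and stand side by side in clusters, and their own bodies are known as sites of the repressive histone mark H3K9me3.

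By position on GRCh37, runs of members whose start sites were at most 500 kb apart and that held at least 5 members formed 10 clusters, numbered here from the short arm. They held 226 members, and 12 members stood outside. With a limit of 250 kb there were 12 clusters with 224 members, and with 1000 kb there were 9 with 229. The largest clusters were cluster 10 (57.7 to 59 Mb, 40 members), cluster 8 (52.1 to 54.1 Mb, 39 members) and cluster 4 (19.8 to 24.3 Mb, 37 members). Read from the annotated coding sequence, a KRAB-like residue pattern was present in 196 members, and the number of C2H2 fingers had a median of 12 and reached 36. Fingers were read from the coding sequence of a single transcript of each gene. For ZNF274 that sequence gave 103 residues and no finger, which does not show that its protein lacks fingers. ZNF274 was left out of the finger counts.

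The repeat that gives the family its name is shown for the 3 members that passed the test of genotype, ZNF98, ZNF737 and ZNF528, and for ZNF91, known for restraining SVA transposons. Each line holds the first finger of the gene that is followed by a linker and another finger, 84 bases of GRCh37 read 5′ to 3′, with the 21 bases of the linker in capitals. The ZNF98 stretch is at chr19:22575320-22575403, that of ZNF737 at chr19:20728403-20728486 and that of ZNF91 at chr19:23544896-23544979, all on the minus strand, and that of ZNF528 is at chr19:52918748-52918831 on the plus strand.
ZNF98: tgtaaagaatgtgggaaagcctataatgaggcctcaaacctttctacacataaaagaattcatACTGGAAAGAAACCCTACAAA
ZNF737: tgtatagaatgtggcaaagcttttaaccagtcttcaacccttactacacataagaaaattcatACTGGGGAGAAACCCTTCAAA
ZNF91: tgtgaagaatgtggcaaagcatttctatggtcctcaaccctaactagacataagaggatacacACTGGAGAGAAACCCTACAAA
ZNF528: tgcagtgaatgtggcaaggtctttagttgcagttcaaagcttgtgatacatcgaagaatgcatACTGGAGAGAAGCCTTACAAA

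The 3 stretches from cluster 4 (ZNF98, ZNF737 and ZNF91) shared 65 to 69 of 84 bases with each other. The ZNF528 stretch, from cluster 8, shared 55 to 59 of 84 bases with them. Of the 21 linker bases, 17 to 20 were identical in every pair.

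Such repeats bear on the measurement, because a short fragment from one member can match another. The share of 50-base words of a member's longest transcript that also occur in a transcript of another gene had a median of 4.87%, and it was at least 10% in 77 members. ZNF98 shared 58.0% of its words with other genes, most of them with ZNF492 (54.1%). How the program that estimated FPKM divided shared fragments is not given in the sources used here, so values of such pairs are uncertain.

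CEBPB, the gene that the deleted enhancer acts on, had an FPKM of 30.6 and 19.2 in the WT libraries and of 12.4 and 11.8 in the enhancer-deleted libraries (log2 fold change −0.94, SE 0.27, limma adjusted p = 0.125). The spacing of low values showed enhancer-deleted library 1 to be the shallowest, at 0.554 of the depth of WT library 1, while WT library 2 had 1.12 and enhancer-deleted library 2 had 1.22 of that depth. At these depths an FPKM of 1 in a 4 kb transcript stands for about 95.2 to 210.2 fragments. In WT, 18.8% to 22.3% of all FPKM came from the 5 highest genes, against 27.4% and 35.1% in enhancer-deleted libraries. All 19 liver genes listed, ALB, APOA1 and HNF4A among them, were under an FPKM of 1 in all 4 libraries, with a summed FPKM of 0.608 to 1.13, which goes against the HepG2 label, so the identity of the cells is in question. All 3 blood genes were also under 1. Of the 5 epithelial genes, KRT8 and KRT18 passed the test as lower in enhancer-deleted cells, EPCAM was at most 0.000547 and CDH1 at most 0.00811, and the summed FPKM of the list was 648.2 and 797.3 in WT and 238 in each enhancer-deleted library. Of the 5 mesenchymal genes 0 passed, and their sum of 281.1 and 351.8 in WT and 246 and 208.5 in enhancer-deleted libraries was mostly VIM, at 232 and 308 against 190 and 138. COL3A1 lay the other way, at 33.3 and 31.9 against 45.8 and 55.7, and COL1A1 overlapped. The part of these shifts in the results on zinc finger genes was not tested.

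More chromosome 19 zinc finger genes were expressed in enhancer-deleted cells than in WT cells. An FPKM of at least 1 was reached by 55.5% and 54.2% of the 238 members in the WT libraries, and by 66.8% and 65.1% in the enhancer-deleted libraries. The mean difference at this limit was 11.1 percentage points, against an SD of 1.05 within genotypes. For the 1210 other protein-coding genes of chromosome 19, the shares were 50.2% and 49.4% in WT and 49.1% in both enhancer-deleted libraries, a difference of −0.70 points. For 231 ZNF genes with a number on other chromosomes, the shares were 76.6% and 74.5% in WT and 75.8% and 76.6% in enhancer-deleted libraries. The median FPKM over all 238 members was 1.46 and 1.29 in WT and 3.05 and 2.24 in enhancer-deleted libraries, and the summed FPKM was 700.8 and 638 against 1063 and 853.9. In bulk libraries, a change in every cell and a change in the mix of cells cannot be told apart.

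In all 4 libraries 126 members were at an FPKM of 1 or more and 74 were below 1, of which 40 stayed below 0.1 and 7 were listed at 0 throughout. Both WT libraries were below 1 and both enhancer-deleted libraries at or above 1 for 19 members (7.98%), and the reverse held for 0. The remaining 19 members had libraries of one genotype on both sides of 1. The other chromosome 19 genes showed these patterns for 9 (0.744%) and 13 (1.07%) of 1210 genes. Among the 19 members, 10 belonged to cluster 4, namely ZNF253, ZNF93, ZNF682, ZNF737, ZNF85, ZNF708, ZNF429, ZNF100, ZNF98 and ZNF492. ZNF93, a repressor of L1 retrotransposons, was at 0.130 and 0.301 in WT and at 1.71 and 1.02 in enhancer-deleted cells. ZNF492 was at 0.121 and 0.119 in WT and at 2.08 and 1.66 in enhancer-deleted cells. Both had enhancer-deleted values above both WT values, and both stayed outside the test of genotype, which left out genes whose FPKM averaged below 1 over all libraries. ZNF492 was just outside that limit, with a mean of 0.996, and ZNF93 further below it, at 0.790. ZNF814 in cluster 10, just inside the limit, was at 0.525 and 0.712 in WT and 1.65 and 1.23 in enhancer-deleted cells.

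**Figure D1:**
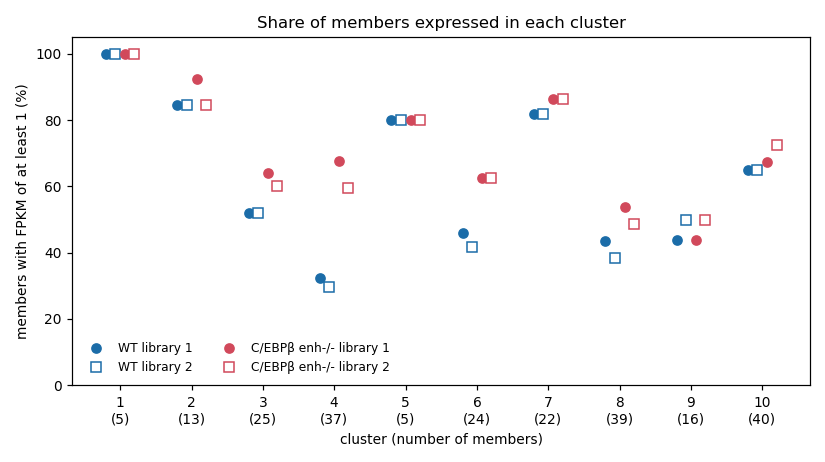
Percentage of the members of each cluster with an FPKM of at least 1 (vertical axis), for clusters 1 to 10 with the number of members in parentheses (horizontal axis). Circles are library 1 and squares library 2 of WT (blue) and C/EBPβ enh-/- cells (red). In cluster 4, 12 and 11 of 37 members reached this level with WT and 25 and 22 after deletion, while clusters 1 and 5 had the same number in all 4.

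To compare the genotypes gene by gene, log2(FPKM + 1) was tested with limma for the 12491 genes whose FPKM averaged 1 or more, and adjusted over all of them. On this scale the fold change of a low gene is understated. Of the 238 members 147 were tested, and 3 rose in enhancer-deleted cells at an adjusted p below 0.05 while 0 fell. Over all tested genes 0.248% were called higher and 1.21% lower. At an unadjusted p below 0.05, 44 members (29.9%) were higher and 0 lower, against 3.86% higher and 16.9% lower over all tested genes. Where a WT mean of at least 1 was required, it was 35 of 131 members (26.7%) higher and 0 lower, against 3.21% and 17.7%. Among 606 other chromosome 19 genes tested, 0 rose and 7 fell at the adjusted threshold. Among 181 ZNF genes tested on other chromosomes, 0 rose and 0 fell at the adjusted threshold, with 12 higher and 5 lower at an unadjusted p below 0.05.

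ZNF98 (ENSG00000197360.5, chromosome 19 from 22573821 to 22715287, minus strand) had an FPKM of 0.129 and 0.558 in the WT libraries and of 6.66 and 5.09 in the enhancer-deleted libraries. Its means were 0.344 ± 0.303 and 5.87 ± 1.10 (SD, n = 2 each), and its log2 fold change was 2.36 (SE 0.29, limma adjusted p = 0.0208). ZNF737 (ENSG00000237440.4, from 20718631 to 20748615, minus strand) was at 0.0175 and 0.156 in WT and at 4.53 and 2.71 in enhancer-deleted cells. Its log2 fold change was 2.06 (SE 0.31, limma adjusted p = 0.0334). ZNF528 (ENSG00000167555.9, from 52901102 to 52921665, plus strand) was at 1.99 and 0.694 in WT and at 9.12 and 6.93 in enhancer-deleted cells. Its means were 1.34 ± 0.919 and 8.02 ± 1.55 (SD, n = 2 each), a ratio of 5.97, and its log2 fold change was 1.99 (SE 0.33, limma adjusted p = 0.0435). For all 3 genes the lowest enhancer-deleted value lay well above the highest WT value. ZNF98 and ZNF737 had a WT mean below 1 and were tested only because of their enhancer-deleted values, and ZNF528 passed also where a WT mean of at least 1 was required.
The calls of ZNF98, ZNF737 and ZNF528 needed all 4 libraries. Without WT library 1, WT library 2 or enhancer-deleted library 1, 0 members passed, and without enhancer-deleted library 2, 1 passed, which was ZNF888 and not one of these genes. The log2 fold changes themselves stayed between 2.13 and 2.6 for ZNF98, between 1.77 and 2.35 for ZNF737 and between 1.58 and 2.40 for ZNF528. The calls also depended on the processing. With a pseudocount of 0.1 ZNF98 alone of the 3 passed, and the log2 fold changes were 3.93 for ZNF98, 4.38 for ZNF737 and 2.64 for ZNF528, while with no filter 0 members passed. The smallest p that an exact permutation test can reach with 2 against 2 libraries is 0.333.

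The shift was wider than these calls. The median log2 fold change of the 147 tested members was 0.48, with quartiles of 0.22 and 0.74, and 134 members were above 0 (91.2%) and 13 below. Over all tested genes the median was −0.14. It was −0.07 for the other chromosome 19 genes and 0.11 for the ZNF genes of other chromosomes. The members thus stood 0.62 above all tested genes, 0.34 to 0.63 above them under the other filters and scalings, and 0.74 with a pseudocount of 0.1. Centring each library on its median moved the median of all tested genes to 0.03, that of the members to 0.65 and that of the other chromosome 19 genes to 0.11, so the sign of the last depends on the scaling. The median of the ZNF genes of other chromosomes was 0.28 after centring, 0.30 with correction for GC content and length, 0.29 after rescaling without the 5 highest genes and 0.019 at a mean FPKM of at least 5. Both enhancer-deleted values lay above both WT values for 100 tested members (68.0%) and below both for 3 (2.04%), against 15.1% and 37.5% of all tested genes. The ZNF genes of other chromosomes lay between, with 32.0% above and 19.9% below. After centring, both values lay above for 80.3% of members and 28.1% of all tested genes, of which 25.2% had both below. For the ZNF genes of other chromosomes the shares were then 50.8% above and 10.5% below. These differences between groups of genes were not tested. Of the members tested, 16 had a WT mean below 1 and none had an enhancer-deleted mean below 1, so the filter itself admitted members that were high in enhancer-deleted cells. When only genes with a WT mean of at least 1 were taken, 85 of 131 members (64.9%) were higher and 3 (2.29%) lower, against 13.6% and 39.2% of such genes. With no filter, 151 of the 231 members above 0 in any library (65.4%) were higher and 9 (3.90%) lower, against 16.4% and 24.4% of the 30754 such genes.

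**Figure D2:**
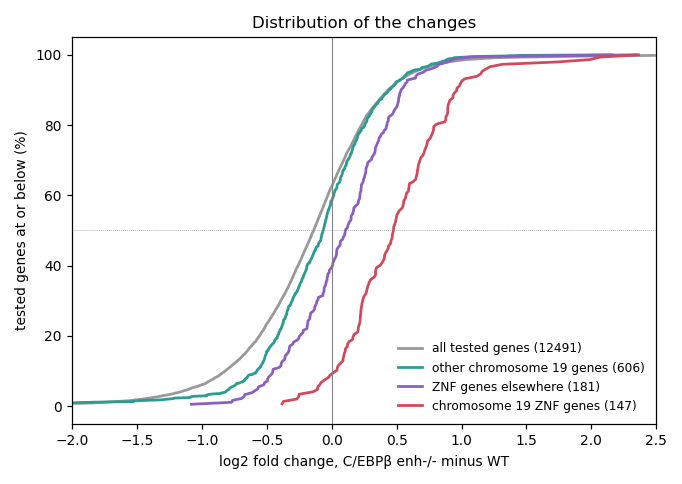
Cumulative percentage of tested genes (vertical axis) at or below each log2 fold change of C/EBPβ enh-/- minus WT (horizontal axis, cut at −2 and 2.5). The curve of the chromosome 19 ZNF genes (red, 147 genes, median 0.48) runs to the right of those of ZNF genes elsewhere (purple, 181, median 0.11), other chromosome 19 genes (green, 606, median −0.07) and all tested genes (grey, 12491, median −0.14).

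The size of the shift differed between the libraries. enhancer-deleted library 1 exceeded the WT libraries by a median of 0.61 and 0.71 over the tested members, and enhancer-deleted library 2 by 0.29 and 0.35. Within genotypes the same median was −0.07 between the WT libraries and −0.27 between the enhancer-deleted libraries. The difference between the enhancer-deleted libraries was thus close to the rise of library 2 over WT, and library 1 was also the shallowest. Without enhancer-deleted library 1 the median of the members was 0.32, and it was 0.66 without library 2. For the other chromosome 19 genes, enhancer-deleted library 1 differed from the WT libraries by 0.06 and −0.15, and library 2 by −0.05 and −0.20.

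Among the next largest differences, none passed the threshold. ZNF888, in cluster 8, was at 0 and 0.00254 in WT and at 7.73 and 0.278 in enhancer-deleted cells. Its log2 fold change of 1.74 (SE 0.80) rested on enhancer-deleted library 1, without which it was 0.35, and it was 3.12 without enhancer-deleted library 2 and 4.09 with a pseudocount of 0.1. ZNF816, also in cluster 8, was at 0.164 and 0.357 in WT and at 2.98 and 1.45 in enhancer-deleted cells (log2 fold change 1.31, SE 0.34, and 2.65 with a pseudocount of 0.1). ZNF100, in cluster 4, was at 0.906 and 0.981 in WT and at 4.42 and 2.78 in enhancer-deleted cells (log2 fold change 1.22, SE 0.29). In ZNF816 and ZNF100 every enhancer-deleted value exceeded every WT value, and the limma adjusted p was 0.105 and 0.0871.

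Among tested members 3 had both enhancer-deleted values below both WT values, and after centring, GC and length correction or rescaling without the 5 highest genes 1 did, ZNF333. ZNF599 was at 2.73 and 2.12 in WT and at 1.47 and 1.77 in enhancer-deleted cells (log2 fold change −0.38, SE 0.26). ZNF333, which stands outside the clusters, was at 6.16 and 6.64 in WT and at 4.86 and 4.57 in enhancer-deleted cells (log2 fold change −0.37, SE 0.22). ZNF580, in cluster 9, was at 4.51 and 4.89 in WT and at 3.20 and 4.42 in enhancer-deleted cells (log2 fold change −0.26, SE 0.24). The last value was −0.07 without enhancer-deleted library 1, −0.44 without enhancer-deleted library 2 and −0.0092 with GC and length correction. After centring, the log2 fold change was −0.21 for ZNF599 and −0.20 for ZNF333, and without WT library 1 that of ZNF599 was −0.26. None of the 3 passed the threshold.

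The 5 members with the highest mean FPKM had log2 fold changes from −0.25 to 0.63. ZNF146, which consists almost wholly of fingers and has no KRAB box, was at 55.4 and 37.6 in WT and at 36.2 and 40.3 in enhancer-deleted cells, and the groups overlapped. ZNF121 was at 29.3 and 27.3 in WT and at 28.5 in both enhancer-deleted libraries. WT libraries 1 and 2 gave ZNF544 the same 26.0, and enhancer-deleted cells 27.7 and 28.3, so that both enhancer-deleted values were higher, by a log2 fold change of 0.10 (0.27 to 0.33 after centring, GC and length correction or rescaling without the 5 highest genes). ZNF460 was at 22.4 and 18.8 in WT and at 20.8 and 24.1 in enhancer-deleted cells. The highest of these log2 fold changes was that of ZNF561, 0.63 (SE 0.26, limma adjusted p = 0.231), from 18.2 and 16.7 in WT to 33.7 and 22.4 in enhancer-deleted cells. Without enhancer-deleted library 1 it was 0.35.

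Among members with a known role, ZNF91 was at 5.57 and 7.27 in WT and at 14.3 and 13.3 in enhancer-deleted cells. Its means were 6.42 ± 1.20 and 13.8 ± 0.728 (SD, n = 2 each), a ratio of 2.14, and its log2 fold change of 1.0 (SE 0.23, limma adjusted p = 0.084) did not pass. ZNF224, a repressor of the aldolase A gene, was at 5.53 and 4.07 in WT and at 9.79 and 7.44 in enhancer-deleted cells, a log2 fold change of 0.73 (SE 0.25). It shares 48.1% of its words with the overlapping entry ZNF225-AS1, and whether strand was used in the estimate is not given in the sources used here. ZNF274, which binds the 3′ ends of zinc finger genes and brings SETDB1 to them, was at 7.72 and 6.79 in WT and at 10.0 and 10.9 in enhancer-deleted cells, a log2 fold change of 0.48 (SE 0.22). In these 3 genes every enhancer-deleted value was above every WT value, and none passed the adjusted threshold.
ZNF675, an inhibitor of TRAF6 signalling, was at 6.30 and 5.83 in WT and at 10.5 and 6.59 in enhancer-deleted cells, again higher in both. The imprinted gene ZNF331 was at 6.22 and 4.51 in WT and at 5.23 and 6.26 in enhancer-deleted cells, and ZNF444 at 5.73 and 8.71 against 7.85 and 7.44, so that the groups overlapped in both genes. ZNF382, ZNF568, ZNF649 and ZNF671 stayed below an FPKM of 0.3 in every library.

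**Figure D3:**
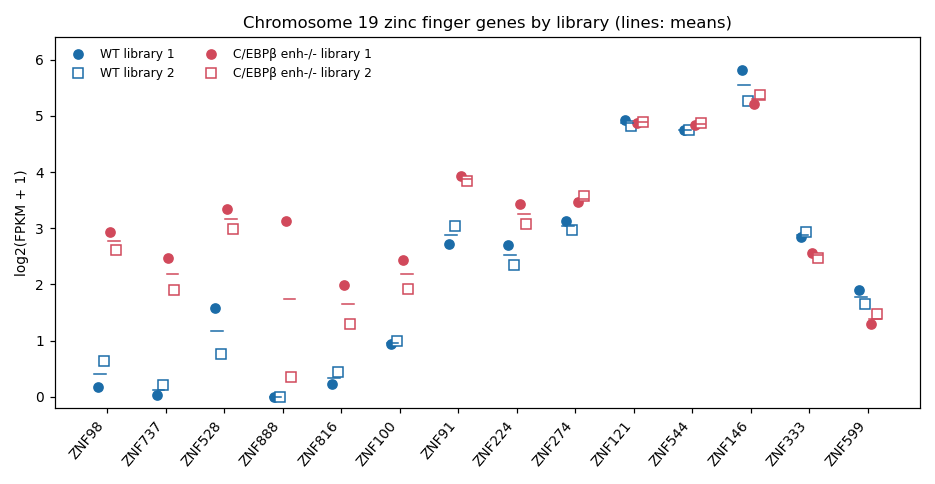
log2(FPKM + 1) of 14 members (vertical axis, genes on the horizontal axis) in WT libraries 1 and 2 (blue circle and square) and C/EBPβ enh-/- libraries 1 and 2 (red circle and square), with short lines at the mean of each genotype. ZNF98, ZNF737 and ZNF528 show WT values far below the C/EBPβ enh-/- values, ZNF888 is high in C/EBPβ enh-/- library 1 alone, and ZNF121, ZNF544 and ZNF146 lie close together.

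Along the chromosome the median was above 0 in 9 of the 10 clusters, and in cluster 9, the exception, its sign depended on the processing. It was 0.69 in cluster 4, 0.68 in cluster 7 (44 to 45 Mb), 0.66 in cluster 3 (11.6 to 12.8 Mb) and 0.66 in cluster 8, where it was 0.35 with no filter and 0.27 at a mean FPKM of at least 5. It was 0.50 in cluster 6 (36.7 to 38.3 Mb), 0.46 in cluster 10 and 0.37 in cluster 1 (2.8 to 2.9 Mb). It was 0.23 in cluster 2 (8.6 to 9.9 Mb), 0.18 in cluster 5 (35.2 to 35.5 Mb, 4 tested members) and −0.05 in cluster 9 (56 to 57.2 Mb), where it was 0.13 after centring each library on its median, 0.17 with correction for GC content and length, and 0.018 without WT library 2. These medians are descriptions of unequal numbers of genes, and the differences between clusters were not tested. Without enhancer-deleted library 1 the median of cluster 3 was 0.16, that of cluster 7 0.43, that of cluster 8 0.41, that of cluster 1 0.18 and that of cluster 2 0.12, while clusters 4, 6 and 10 had 0.56, 0.49 and 0.34. Without enhancer-deleted library 2 the median was 1.06 in cluster 3, 0.79 in cluster 1 and 0.49 in cluster 2. Centring gave 0.40 in cluster 2 and 0.35 in cluster 5. Cluster 5 turned below 0 without WT library 2 (−0.06) or enhancer-deleted library 2 (−0.10). The 8 tested members outside clusters had a median of 0.25.

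**Figure D4:**
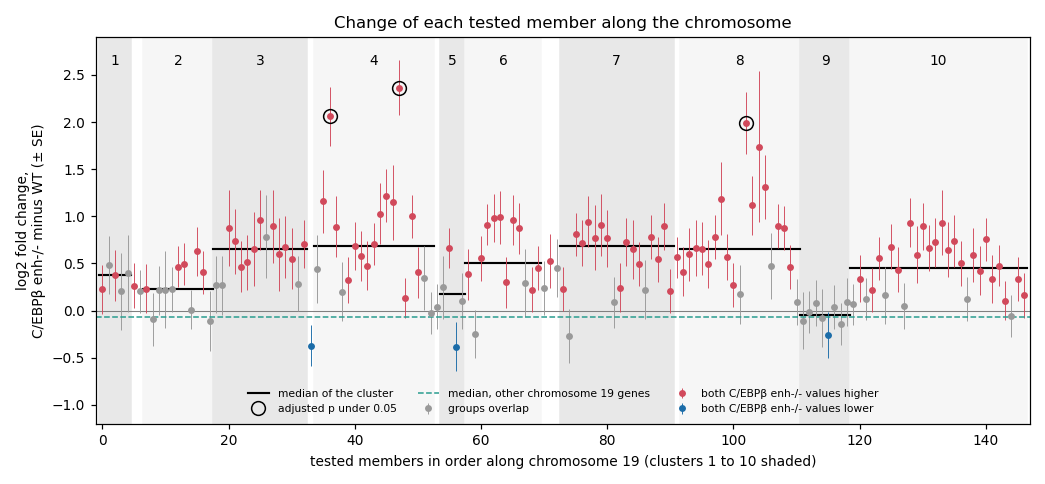
Log2 fold change of C/EBPβ enh-/- minus WT with its SE (vertical axis) for the 147 tested members in their order along chromosome 19 (horizontal axis), with clusters 1 to 10 shaded. Red points have both C/EBPβ enh-/- values above both WT values (100 members), blue points both below (3), grey points overlap, rings mark the 3 members past the threshold, black lines are cluster medians and the green dashed line is the median of other chromosome 19 genes (−0.07).

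Cluster 4 lies beside the centromere and holds ZNF91, ZNF93 and their relatives. Of its 37 members 19 were tested, 15 of them had both enhancer-deleted values above both WT values and 10 had an unadjusted p below 0.05, patterns held by 15.1% and 3.86% (higher) of all tested genes. Of the 19, 7 had a WT mean below 1 and were tested only because of their enhancer-deleted values, and among the other 12 the counts were 8 and 4, against 13.6% and 3.21% of genes with such a WT mean. Counted with no filter, 30 of the 37 were higher in both enhancer-deleted libraries, against 16.4% of all genes above 0, and 1 was lower, against 24.4%. Its highest member, ZNF714, was at 10.1 and 10.2 in WT and at 15.6 and 10.8 in enhancer-deleted cells. ZNF98 and ZNF492, which share much of their sequence, were both low in WT and higher in enhancer-deleted cells, and their separate values are uncertain. ZNF737 shared 4.51% of its words with other genes. When a WT mean of at least 1 was required, the median of the cluster was 0.42.

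The pattern of both enhancer-deleted values above both WT values, held by 15.1% of all tested genes, was also counted in the other clusters. Clusters 3, 6, 8 and 10 too held members admitted by their enhancer-deleted values alone, and at a WT mean of at least 1 they had 9 of 13, 8 of 10, 13 of 16 and 21 of 26 members with it, against 13.6% of such genes. In cluster 3, all 15 tested members were above 0 and 11 were higher in both enhancer-deleted libraries, and ZNF136 had the largest log2 fold change, 0.96 (0.54 without enhancer-deleted library 1), with 3.11 and 3.04 in WT and 9.67 and 4.91 in enhancer-deleted cells. The highest member of the cluster, ZNF627, was at 8.26 and 6.17 in WT and at 11.8 and 6.50 in enhancer-deleted cells, and the groups overlapped. In this cluster enhancer-deleted library 2 was below library 1 by a median of 0.78 on the log2 scale. In cluster 6, 10 of 12 tested members were higher in both enhancer-deleted libraries. ZNF420 was at 2.63 and 2.99 in WT and at 8.42 and 5.08 in enhancer-deleted cells. In cluster 7, 15 of 18 were higher, and ZNF226, the highest member, was at 16.4 and 11.8 in WT and at 21.7 and 12.4 in enhancer-deleted cells, with overlap. ZNF221, with the largest log2 fold change of that cluster (0.94), was at 1.31 and 2.02 in WT and at 4.61 and 3.59 in enhancer-deleted cells. In cluster 8, all 19 tested members were above 0 and 16 were higher in both enhancer-deleted libraries, the highest member ZNF766 among them, at 7.0 and 5.19 in WT and 7.91 and 7.11 in enhancer-deleted cells. In cluster 10, 22 of 28 were higher, and ZNF134 was at 4.4 and 2.34 in WT and at 9.26 and 5.42 in enhancer-deleted cells.
In the smaller clusters 1, 2 and 5, 2 of 5, 5 of 11 and 1 of 4 tested members were higher in both enhancer-deleted libraries. ZNF555 in cluster 1 was at 2.26 and 1.46 in WT and at 3.90 and 2.21 in enhancer-deleted cells, and the groups overlapped. ZNF57, the highest member of cluster 1, was at 1.84 and 2.31 in WT and at 4.35 and 1.33 in enhancer-deleted cells, and shared 78.1% of its words with other entries. ZNF181 in cluster 5 was at 6.0 and 5.91 in WT and at 9.70 and 10.4 in enhancer-deleted cells.

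In cluster 9 the genotypes mostly overlapped. Its 16 members had a median GC content of 58.7%, against 42.4% over all members, and 6 of them held the KRAB-like pattern. Of its 8 tested members 3 were above 0 and 5 below. In both enhancer-deleted libraries 0 were higher and 1 was lower, ZNF580, and 7 overlapped. Over all tested genes 37.4% were above 0, 15.1% were higher and 37.5% lower in this way, and 5923 of 12491 overlapped. Its highest member, ZNF787, was at 11.8 and 14.7 in WT and at 11.5 and 12.1 in enhancer-deleted cells.

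Genes of other kinds that lie inside the clusters gave a further point of comparison. The 109 other protein-coding genes between the first and last members of a cluster were mostly silent, and 28 were tested. Their median was 0.03, with 15 above 0 (53.6%) and 13 below. In both enhancer-deleted libraries 9 of them were higher (32.1%) and 7 lower (25%). For the 12491 tested genes as a whole the median was −0.14, with 37.4% above 0, 15.1% higher and 37.5% lower. The 578 tested genes of chromosome 19 outside the clusters had a median of −0.07. In cluster 7 the other genes had a median of −0.29 (7 tested) and in cluster 10 of 0.40 (7 tested). These 109 genes include zinc finger genes with other kinds of symbol. The 6 ZNF genes of the chromosome whose number is followed by a letter, such as ZNF587B, are not members and had a median of 0.44, with all 6 above 0.

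Members with the KRAB-like pattern had a median log2 fold change of 0.55 (121 tested, 89 higher and 2 lower in both enhancer-deleted libraries), and all 3 genes past the threshold were among them (0.248% of all tested genes were called higher). Members without it had a median of 0.13 (26 tested, 11 higher and 1 lower). The pattern is a fixed residue rule, and its absence does not show that a KRAB box is absent. Over all tested genes 15.1% were higher and 37.5% lower in this way. The members without the pattern had a higher GC content, with a median of 57.8% against 41.9%, so the groups were also split by GC content. Under 50% GC the median was 0.55 with the pattern (115 tested) and 0.22 without it (10 tested). At 50% or more it was 0.36 with it (6 tested) and 0.091 without it (16 tested). The shares higher in both enhancer-deleted libraries, with and without the pattern, were 73.9% and 70% under 50% GC. At 50% or more they were 66.7% and 25%. At a WT mean of at least 1 these shares were 71% and 70%, and 60% and 25%. The medians under 50% GC were then 0.50 with the pattern and 0.22 without it. Differences between these groups, some of them small, were not tested. The 16 members admitted by their enhancer-deleted values alone, whose own median was 0.96, all held the pattern, and without them its median was 0.49 and 70.5% were higher in both enhancer-deleted libraries. By number of fingers, members with 1 to 9 had a median of 0.23 (38 tested), those with 10 to 14 had 0.42 (64 tested) and those with 15 or more had 0.65 (44 tested). Where a WT mean of at least 1 was required, these medians were 0.23, 0.40 and 0.57 (38, 55 and 37 members). The difference between these groups was not tested. Members that shared under 10% of their words with other genes had a median of 0.50, with 67 of 97 higher and 3 lower in both enhancer-deleted libraries, and the others had 0.38, with 33 of 50 higher and 0 lower. At a WT mean of at least 1 the medians were 0.48 and 0.34, with 65.5% and 63.6% higher against 13.6% of such genes.

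The change was set beside GC content as a description. The median of the members was 0.69 at a GC content of 30% to 40%, 0.50 at 40% to 45%, 0.40 at 45% to 50%, 0.23 at 50% to 60% and −0.01 at 60% to 80%. The bins below 45% also held 15 of the 16 members admitted by their enhancer-deleted values alone, and at a WT mean of at least 1 the medians were 0.60, 0.48, 0.40, 0.22 and −0.01 (29, 60, 21, 10 and 11 members). For other protein-coding genes of any chromosome it was −0.08, −0.13, −0.19, −0.20 and −0.20 in the same bins. For the other genes of chromosome 19 the median was 0.24, 0.25 and 0.11 in the 3 bins below 50%, which held 6, 10 and 22 tested genes, and −0.08 in both bins above. These other genes include zinc finger genes with other kinds of symbol. Among them are the 6 letter-suffixed ZNF genes, all above 0, with a median GC content of 42.4% and a median log2 fold change of 0.44. After each library was corrected for GC content and transcript length with a loess fit over all tested genes, the median of the members was 0.62 and that of all tested genes 0.03.

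**Figure D5:**
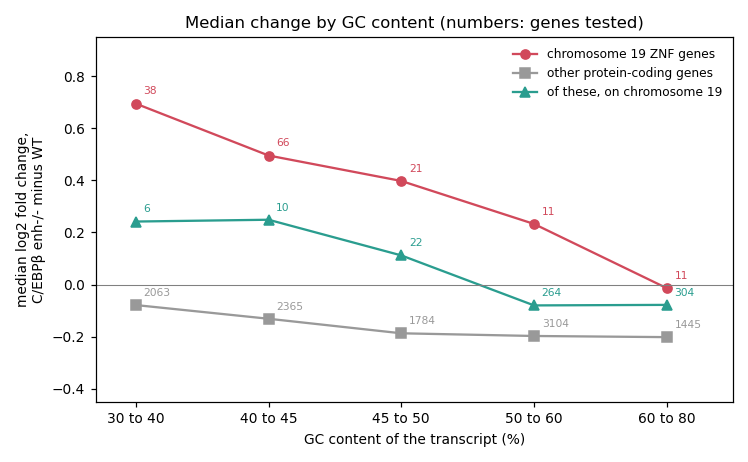
Median log2 fold change of C/EBPβ enh-/- minus WT (vertical axis) by GC content of the transcript in percent (horizontal axis), with the number of tested genes beside each point. Chromosome 19 ZNF genes (red circles) run from 0.69 to −0.01, other protein-coding genes (grey squares) from −0.08 to −0.20, and those of them on chromosome 19 (green triangles) lie between. The last group includes zinc finger genes with other kinds of symbol.

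The cofactors through which KRAB zinc finger proteins repress were measured in the same libraries. All 15 listed were tested and 0 passed the threshold in either direction. Their median log2 fold change was −0.33, beside −0.14 over all tested genes. Both enhancer-deleted values were below both WT values for 10, a pattern held by 37.5% of all tested genes. Both were above for 2, a pattern held by 15.1%. These counts are on the uncentred scale, and after centring the shares of all tested genes were 25.2% below and 28.1% above. TRIM28, the corepressor that binds the KRAB box, was at 91.4 and 181 in WT and at 161 and 151 in enhancer-deleted cells, and the groups overlapped. SETDB1 was at 18.0 and 19.1 in WT and at 16.8 and 15.6 in enhancer-deleted cells. CBX1 was at 53.6 and 49.2 in WT and at 34.3 and 33.6 in enhancer-deleted cells (log2 fold change −0.58, limma adjusted p = 0.178).
CBX5 was at 35.9 and 24.1 in WT and at 15.2 and 21.2 in enhancer-deleted cells. TASOR, a subunit of the HUSH silencing complex, was at 36.4 and 31.6 in WT and at 11.6 and 26.7 in enhancer-deleted cells, and MPHOSPH8 of the same complex at 5.49 and 7.22 against 3.73 and 4.48. CHD3, a remodeller of the NuRD complex, was at 53.4 and 55.0 in WT and at 23.8 and 37.0 in enhancer-deleted cells. The 2 with both values above were ATRX, at 15.9 and 14.3 in WT and 16.5 and 21.4 in enhancer-deleted cells, and its partner DAXX, at 25.3 and 28.4 against 35.2 and 29.998.

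Since many members were higher together, their promoters were read from RefSeq (GRCh38.p14, 250 bases before to 50 after the start), where 208 of 238 members matched with 258 windows. Those of ZNF737, ZNF528 and ZNF91 are shown, 5′ to 3′ with each CG dinucleotide, the site of DNA methylation, in capitals. ZNF737 is at chr19:20565732-20566031 and ZNF91 at chr19:23395422-23395721, both on the minus strand, and ZNF528 at chr19:52397599-52397898 on the plus strand.
ZNF737: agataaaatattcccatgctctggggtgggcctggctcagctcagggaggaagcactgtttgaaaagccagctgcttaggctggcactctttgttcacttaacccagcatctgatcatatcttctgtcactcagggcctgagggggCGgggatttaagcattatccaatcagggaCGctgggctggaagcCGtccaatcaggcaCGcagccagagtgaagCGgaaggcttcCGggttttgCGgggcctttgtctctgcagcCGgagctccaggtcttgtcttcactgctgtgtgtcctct
ZNF91: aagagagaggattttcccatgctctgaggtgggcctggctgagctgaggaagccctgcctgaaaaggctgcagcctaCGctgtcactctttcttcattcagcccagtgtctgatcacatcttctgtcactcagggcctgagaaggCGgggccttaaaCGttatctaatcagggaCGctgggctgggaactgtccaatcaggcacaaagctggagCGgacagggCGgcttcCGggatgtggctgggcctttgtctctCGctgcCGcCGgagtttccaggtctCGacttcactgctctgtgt
ZNF528: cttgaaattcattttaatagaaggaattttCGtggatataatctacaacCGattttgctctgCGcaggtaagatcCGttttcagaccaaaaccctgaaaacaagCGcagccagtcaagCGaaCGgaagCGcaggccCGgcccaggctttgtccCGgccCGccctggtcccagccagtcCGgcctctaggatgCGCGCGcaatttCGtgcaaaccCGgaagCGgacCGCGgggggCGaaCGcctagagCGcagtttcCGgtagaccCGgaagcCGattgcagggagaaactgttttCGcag

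The windows held 8 CG in ZNF737, 11 in ZNF91 and 27 in ZNF528. The median was 20 over the windows of the members, 21 over those of the other chromosome 19 protein-coding genes and 14 over all 35116 promoter windows of the table. The letters TTGCNNAA, the core of the C/EBP consensus searched on both strands, were in none of these windows, in 1.94% of the members' windows and in 5.44% of all windows. For the other chromosome 19 protein-coding genes the share was 3.20%. A match of letters is a description and not a binding site.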

How the data were processed

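The authors deposited FPKM, a single value for each of 57815 versioned Ensembl gene identifiers in every library, of which 47 pseudoautosomal copies on Y were left out and 55535 matched a symbol. The submitters' processing notes name hg19, TopHat2 2.0.13, Cufflinks and edgeR with no roles, so the program that gave FPKM, its annotation and any scaling between libraries are not given in the sources used here. FPKM depends on the other genes of a library. Positions, lengths, GC content and coding sequence came from GRCh37 with GENCODE release 44 lifted to it. No protein table was used, and fingers and the KRAB-like pattern were read from translated annotated coding sequence. Depth was read from values under 0.3 in transcripts over 1000 nt, with a fragment length of 150 nt assumed, and 52.9% to 55.2% of these lay within 0.1 of a whole fragment, so depths are estimates and count models were not used.

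Genotypes were set against each other on log2(FPKM + 1) by limma 3.58.1 in R 4.3.3 (mean-variance trend, two-sided, Benjamini-Hochberg adjustment over the 12491 genes averaging an FPKM of 1 or more, threshold 0.05), with genotype taken from the labels, and the fit was tested on simulated data. Tables came from pandas 2.3.3 in Python 3.11.15, and figures from matplotlib 3.10.9. Genes named are members past the threshold, the 6 largest rises and falls among members whose genotypes did not overlap (only 3 such falls existed), the 5 highest members, the highest and the most changed member of each cluster, 12 members with a known role, members at the filter limit, CEBPB, cofactors and cell type markers. The members, lists and rules were chosen with earlier results of these data known. Alternatives were another pseudocount, other filters and scalings, no trend, GC and length correction, the replicate block, other expression limits and leaving out each library.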

Additional observations from a re-analysis of the deposited data

How the results depend on the processing

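Members called higher numbered 3, and 1 with a pseudocount of 0.1, 0 with no filter, 0 at a mean FPKM of at least 5, 1 at a WT mean of at least 1 and 0 to 1 when 1 library was left out, which assumes that the lone library of a genotype varies like the others. The replicate numbers do not pair the samples: the correlation of deviations between same-numbered libraries was 0.00945 over all tested genes and −0.132 over the members. With the replicate number as a block 2 members passed, and with GC and length correction and the block 0 passed. The median of the members was 0.34 with no filter, 0.65 after centring on the median, 0.62 with GC and length correction, with or without the block, 0.66 after rescaling without the 5 highest genes and 0.32 to 0.66 with 1 library left out. That of the other chromosome 19 genes was 0.11, 0.16 (with or without the block) and 0.13 under the same 3 scalings, in order, and −0.17 to 0.018 with 1 library left out, so its sign depends on the scaling. These scalings moved the median of all tested genes from −0.14 to 0.03, 0.03 and 0.06. The member median minus that of the other chromosome 19 genes was 0.34 with no filter and 0.43 to 0.71 with 1 library left out, and minus that of all tested genes 0.34 and 0.51 to 0.76. Members with non-overlapping, higher values made up 80.3% after centring (28.1% of all tested genes), 81.0% with GC and length correction, with or without the block (28.8%), and after rescaling without the 5 highest genes (30.3%), and 73.5% to 84.4% with 1 library left out (21.7% to 33.2%), where non-overlap is easier to reach. Members with non-overlapping, lower values made up 2.04% (37.5% of all tested genes), and 0.680% under each of the same 3 scalings (25.2%, 25.5% and 23.1%). With 1 library left out they made up 4.76% to 7.48% (47.2% to 54.5% of all tested genes). The rise in the share of members expressed was 7.56 points at an FPKM of 0.1 and 9.03 at 0.5, and for other chromosome 19 genes it was 1.98 points at 0.1. At an FPKM of 5 the members' shares were 17.2% and 16.4% in WT and 32.8% and 23.5% in enhancer-deleted libraries. That rise was 11.3 points, against an SD of 4.64 within genotypes. ZNF787 turned above 0, to 0.028 after centring, 0.045 with GC and length correction (with or without the block) and 0.070 after rescaling without the 5 highest genes. With 1 library left out the sign turned for cluster 5 (−0.10 to 0.45), cluster 9 (−0.13 to 0.018), ZNF57 (−0.39 to 0.80), ZNF121 (−0.039 to 0.061), ZNF627 (−0.12 to 0.65), ZNF146 (−0.53 to 0.022), ZNF226 (−0.15 to 0.60), ZNF331 (−0.10 to 0.29), ZNF787 (−0.29 to 0.0026) and ZNF444 (−0.17 to 0.36). The filter on the WT mean and the rescaling without the 5 highest genes were chosen after seeing the data. The cause of these changes was not tested.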
